A study of Mus musculus with 7 samples.

Results

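The genes of the mouse major histocompatibility complex, called H2, and of the machinery that loads its molecules with peptide were followed in spleen RNA. The set was every gene of the deposited table whose name starts with H2-, which gave 36 genes, plus B2m, Tap1, Tap2, Tapbp, Psmb8, Psmb9, Cd74, Ciita and Nlrc5. This made 45 of the 22173 genes in the table. They were divided into 2 classical class I genes, 24 class I genes of the Q, T and M regions, 9 class II genes and 9 genes of peptide processing, loading and transcriptional control. The last one, H2-Ke6, lies in the complex and carries its prefix but encodes a hydroxysteroid dehydrogenase, so it was kept apart. The samples were 7 mouse spleens, 3 given phosphate-buffered saline (PBS) and 4 remodelled by repeated injections of a biomaterial named sHA-X. Hepatocytes, the main cells of the liver, were then injected into the spleens of both groups, and total RNA was taken 30 days later. All 7 libraries therefore come from spleens that had received liver cells, and no spleen without them was analysed here. The strain, sex and age of the mice and the source of the hepatocytes are not stated in the labels, and it is not known whether donor and host carried the same H2 genes. Levels are in FPKM (fragments scaled to transcript length and library depth), and means are given with SD for n = 3 PBS and n = 4 sHA-X libraries.

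Class I molecules are made of a heavy chain and the light chain beta-2 microglobulin, and they show peptides from inside the cell to CD8 T cells on nearly all nucleated cells. Class II molecules are pairs of alpha and beta chains that show peptides from the endosomes to CD4 T cells, and B cells, dendritic cells and some macrophages carry them. The class II chains are held by the invariant chain Cd74 until the editor H2-DM swaps its last fragment for a peptide, and H2-O, found mostly in B cells, inhibits H2-DM. Transcription of class II genes needs the regulator CIITA and that of class I genes is driven in part by its relative NLRC5. Both act through a row of short promoter boxes, and class I promoters also carry sites for nuclear factor kappa B and interferon regulatory factors.

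Promoter stretches are printed for 8 members whose values carry the comparisons below. They are the class II genes H2-Oa and H2-Ob, which were lower in sHA-X, H2-Aa and H2-Eb1, which were not called, and 4 class I genes with unlike patterns over the libraries. The sequences are from RefSeq (build GRCm38.p6), 5′ to 3′ on the strand of the gene. In the first 4, all from 110 to 31 bases before the start, capitals mark the core of the X1 box (AGCAAC) and the Y box (TGATTGG) of class II promoters. The stretches are H2-Oa chr17:34092269-34092348 (plus strand), H2-Ob chr17:34238795-34238874 (plus strand), H2-Aa chr17:34287854-34287933 (minus strand) and H2-Eb1 chr17:34305757-34305836 (plus strand).
H2-Oa: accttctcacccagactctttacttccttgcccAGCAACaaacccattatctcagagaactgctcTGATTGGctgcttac
H2-Ob: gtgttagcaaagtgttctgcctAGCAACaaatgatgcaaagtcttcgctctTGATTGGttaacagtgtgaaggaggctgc
H2-Aa: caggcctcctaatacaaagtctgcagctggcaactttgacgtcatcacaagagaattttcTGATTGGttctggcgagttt
H2-Eb1: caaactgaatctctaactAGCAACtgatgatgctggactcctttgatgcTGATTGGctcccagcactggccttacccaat
Both letter strings stood in H2-Oa, H2-Ob and H2-Eb1, and the Y box alone was found in H2-Aa.

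In the 4 class I stretches, capitals mark a kappa B core (GGATTCC), an interferon response core (TTTCACT), a string like a cyclic AMP response element (TGATGAC) and an inverted CCAAT box (ATTGG, or CCAAT on the other strand). The stretches are H2-D1 chr17:35262914-35263033 (plus strand), H2-Q7 chr17:35439005-35439124 (plus strand), H2-Q10 chr17:35469909-35470028 (plus strand) and H2-T22 chr17:36042798-36042917 (minus strand).
H2-D1: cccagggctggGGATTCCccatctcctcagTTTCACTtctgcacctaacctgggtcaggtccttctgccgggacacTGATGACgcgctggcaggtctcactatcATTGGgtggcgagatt
H2-Q7: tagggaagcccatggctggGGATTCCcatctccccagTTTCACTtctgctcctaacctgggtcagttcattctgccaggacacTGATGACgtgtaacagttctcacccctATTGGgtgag
H2-Q10: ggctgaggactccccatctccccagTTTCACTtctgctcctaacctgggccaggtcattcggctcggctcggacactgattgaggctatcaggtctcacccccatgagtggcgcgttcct
H2-T22: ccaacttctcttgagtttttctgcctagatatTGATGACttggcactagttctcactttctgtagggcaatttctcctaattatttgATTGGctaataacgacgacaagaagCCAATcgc
H2-D1 and H2-Q7 held all 4 class I strings in these stretches, and H2-Q10 held only the interferon response core. H2-T22 also has an interferon response core, at -191 to -185 from its start, but the stretch shown begins at -175 and leaves it out.

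All strings were searched in both orientations in the 250 bases before each start for the 37 members with a RefSeq window. Of 8 class II genes with a window, the X1 core was found in 4 (H2-Oa, H2-Ob, H2-Eb1 and H2-Eb2) and the Y box in 7, all but H2-DMa. The Y box string was found also in 14 of 21 Q, T and M genes and in 1 of the 2 classical genes (H2-D1). It was found too in 2 of 5 processing genes (Psmb9 and Tap1). All class II matches read TGATTGG on the strand of the gene. Outside class II only H2-T22 and Psmb9 matched in that orientation, and the others held its reverse complement, CCAATCA. The X1 core was found in none of the classical, Q, T and M or processing genes. Over 32851 mouse promoter windows the X1 core was found in 12.2%, the Y box in 7.23%, the kappa B core in 3.17%, the interferon response core in 3.7%, the string like a cyclic AMP response element in 2.69% and the inverted CCAAT box in 33.8%. The inverted CCAAT box lies inside the Y box, so the strings are not independent. Among 21 Q, T and M genes with a window, the interferon response core was found in 7 and the kappa B core in 3. None of the 5 processing genes with a window (B2m, Psmb8, Psmb9, Tap1 and Tapbp) held either of the latter strings. A match describes letters in the window and shows no binding, and a missing match does not show that a factor is absent.

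Recovered depth was similar, between 29543963 and 37142126 reads per library. Markers of spleen cells were present in every library, among them the B cell genes Cd79a and Cd79b and the macrophage genes C1qb and Vcam1. Some libraries stood apart in tissue markers. The summed FPKM of 10 pancreatic acinar genes was 1035 in PBS replicate 2 and at most 35.1 elsewhere, with Cel, Ctrb1, Cela3b and Clps at 0 in the other libraries. For 9 skeletal muscle genes the sum was 188 in sHA-X replicate 2 and at most 10.2 elsewhere. For 10 hepatocyte genes it was 727 in sHA-X replicate 3 and 756 in sHA-X replicate 4, and between 3.92 and 25.8 in the others. PBS replicate 3 was the highest PBS library in 26 of 32 tested members and in 52.1% of all tested genes.

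Few members differed between the groups. A gene was tested with limma where its mean over the 7 libraries reached 1 FPKM, which kept 32 of the 45 members, and was called at a Benjamini-Hochberg adjusted p under 0.05 over all 11920 tested genes. H2-T22 and Nlrc5 rose in sHA-X, H2-Ob and H2-Oa fell, and 28 members were not called. After removal of the second library of both groups, which carried the pancreatic and muscle genes, H2-Ob was the only member called (adjusted p = 0.013), and H2-Oa (0.075), Nlrc5 (0.15) and H2-T22 (0.16) were not. The called share was 12.5% of the tested members against 14.3% of all tested genes, a share close to the background. Called higher were 9.30% of all tested genes and called lower 5.03%. The groups did not overlap for 6 members on the higher side and 2 on the lower side, which makes 8 of the 32 tested members, and for 28.8% of all tested genes. The median log2 change was 0.18 for the classical class I genes, 0.26 for the tested Q, T and M genes, -0.12 for class II and 0.09 for processing and regulation, beside 0.03 for all tested genes. The split of calls over all genes moved with the scaling, from 1108 higher and 600 lower to 1001 and 843 with median-of-ratios scaling and to 758 and 938 with quantile normalization. These 4 medians kept their sign under both scalings. They depended on single libraries, since without PBS replicate 3 the log2 change of every class II gene was higher. H2-Ab1, which held the class II median, went from -0.12 to -0.02.

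**Figure D1:**
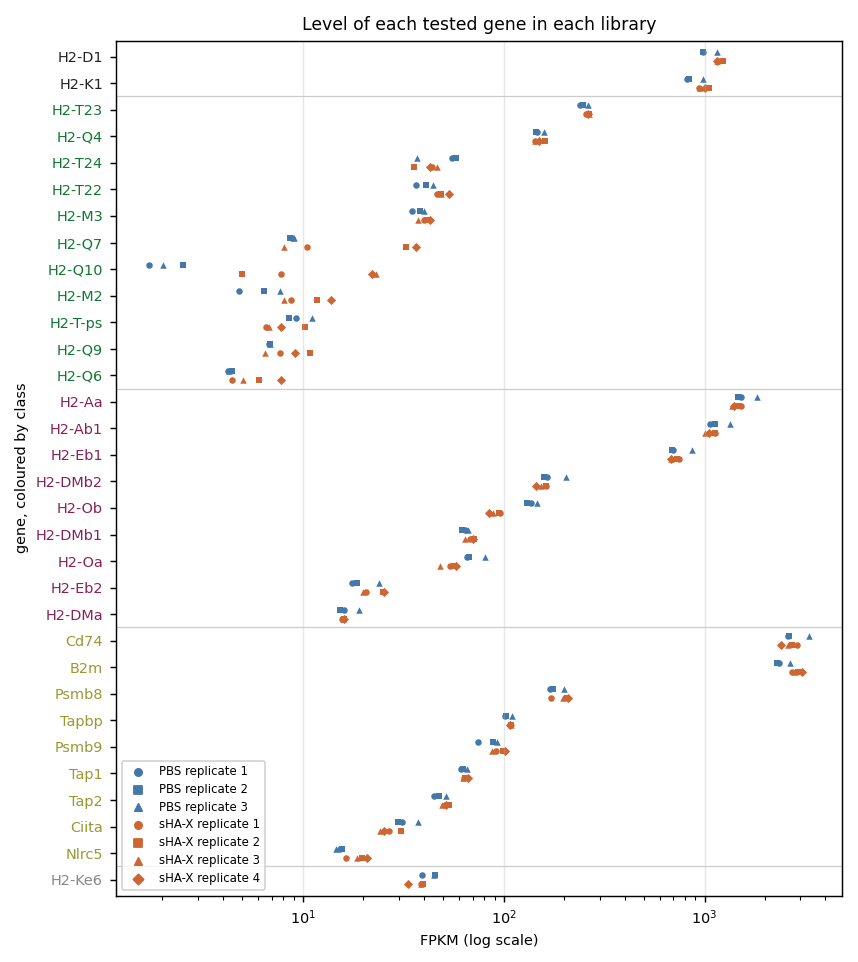
Level of each tested member in each library in FPKM on a log scale, grouped by class and ordered by mean level, with PBS in blue and sHA-X in orange and a marker shape for each replicate number. The 2 groups lie apart on opposite sides for H2-Ob (84.6 to 95.6 FPKM in sHA-X, 131 to 147 in PBS) and H2-Q10 (4.97 to 23.0 in sHA-X, 1.71 to 2.53 in PBS), while H2-Aa, H2-Ab1 and H2-Eb1 overlap.

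**Figure D2:**
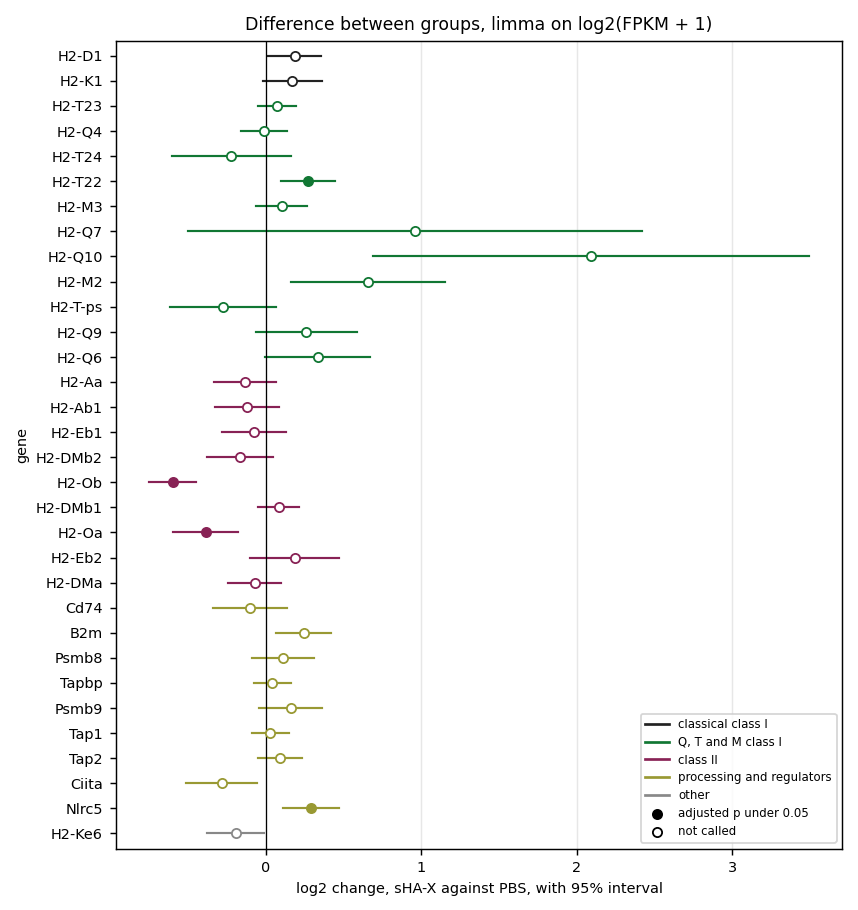
Log2 change of each tested member, sHA-X against PBS, by limma on log2(FPKM + 1), with its 95% interval; filled points have an adjusted p under 0.05. Among the filled points H2-Ob and H2-Oa lie below 0 and H2-T22 and Nlrc5 above it, and the intervals of H2-Q10 and H2-Q7 are the widest.

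The classical heavy chains were somewhat higher in sHA-X without passing the test. H2-K1, which presents peptides to CD8 T cells (chromosome 17, 33996012 to 34000619, GRCm38), was 817, 833 and 987 FPKM in the PBS libraries and 934, 1053, 951 and 1010.5 FPKM in the sHA-X libraries. The groups overlapped because PBS replicate 3 lay above 2 of the sHA-X libraries. The log2 change was 0.17 (SE 0.08, 95% interval -0.02 to 0.36, limma adjusted p = 0.21). H2-D1, the other classical heavy chain (chromosome 17, 35263094 to 35267497), was 977, 981 and 1153 FPKM in the PBS libraries and 1169, 1237, 1152 and 1154 FPKM in the sHA-X libraries. Here too only PBS replicate 3 reached the sHA-X values. The log2 change of H2-D1 was 0.19 (SE 0.07, limma adjusted p = 0.13). Without PBS replicate 3 both passed, with log2 changes of 0.26 for H2-K1 (adjusted p = 0.025) and 0.27 for H2-D1 (adjusted p = 0.010). With any other single library left out neither was called (limma adjusted p up to 0.50 for H2-K1 and 0.36 for H2-D1). After removal of the second library of both groups the adjusted p was 0.60 for H2-K1 and 0.48 for H2-D1. The pair together gave 1916 ± 194 FPKM in the PBS libraries and 2165 ± 88.0 FPKM in the sHA-X libraries. Of the 75-base words in the transcripts of H2-K1, 3.1% also occur in another gene, and 5.4% for H2-D1. These shares count exact matches between reference transcripts. With the strain not stated, they set no limit on the exchange of reads with other class I genes.

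B2m, the light chain that pairs with every class I heavy chain named here (chromosome 2, 122147687 to 122153082), was the highest class I gene of the set. Its level was 2335, 2298 and 2677 FPKM in the PBS libraries and 2724, 2927, 2812 and 3061 FPKM in the sHA-X libraries. Every sHA-X library was above every PBS library, although sHA-X replicate 1 and PBS replicate 3 lay close together. This gave a log2 change of 0.24 (SE 0.08) and was not called (limma adjusted p = 0.069), but without PBS replicate 3 it was 0.31 (adjusted p = 0.0091). With any other single library left out B2m was not called (adjusted p up to 0.21). Nor was it called after removal of the second library of both groups (adjusted p = 0.33). The 2 classical heavy chains and B2m kept nearly the same proportion. Their summed FPKM over that of B2m was 0.768, 0.790 and 0.799 in the PBS libraries and 0.772, 0.782, 0.748 and 0.707 in the sHA-X libraries, with overlap between the groups and the lowest ratio in sHA-X replicate 4.

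Nlrc5, the transactivator of class I genes (chromosome 8, 94434335 to 94527272), rose. It was 15.2, 15.6 and 14.7 FPKM in the PBS libraries and 16.5, 19.7, 18.5 and 20.7 FPKM in the sHA-X libraries. All 4 sHA-X libraries were above all PBS libraries, and sHA-X replicate 1 was nearest to them. The log2 change was 0.29 (SE 0.08, limma adjusted p = 0.043). The call stood near the threshold. It was lost without any 1 of PBS replicates 1 to 3 or sHA-X replicates 2 to 4 (adjusted p between 0.078 and 0.13), and it was kept without sHA-X replicate 1 (adjusted p = 0.020).

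The genes that cut peptides and carry them to class I molecules differed little. Psmb8 and Psmb9, catalytic subunits of the immunoproteasome, were 182 ± 15.8 and 85.0 ± 9.63 FPKM in the PBS libraries and 196 ± 16.9 and 94.98 ± 6.32 FPKM in the sHA-X libraries. Tap1 and Tap2, the subunits of the peptide transporter, were 63.0 ± 2.36 and 48.2 ± 3.32 FPKM in the PBS libraries and 64.3 ± 1.57 and 51.3 ± 1.78 FPKM in the sHA-X libraries. Tapbp, which encodes tapasin and bridges the transporter to empty class I molecules, was 102, 102 and 111 FPKM in the PBS libraries and between 107 and 108 FPKM in the sHA-X libraries. All 5 overlapped between the groups, and none was called (limma adjusted p between 0.27 and 0.76). The 95% interval of the log2 change reached from -0.09 to 0.15 for Tap1 and from -0.04 to 0.36 for Psmb9.

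Of 24 class I genes of the Q, T and M regions, 11 reached the level for testing. These genes encode heavy chains with narrower roles than the classical pair. H2-T22 rose, 10 were not called, and 4 had no overlap between the groups, all on the higher side (36.4% of those tested, against 17.2% of all genes on that side and 28.8% on either). All 24 together gave a summed FPKM of 549.9, 569.7 and 584 in the PBS libraries and 579, 630.3, 599 and 651 in the sHA-X libraries. Most of it came from H2-T23 and H2-Q4.

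H2-T22, a ligand of some gamma delta T cells (chromosome 17, 36037128 to 36042742), was 36.7, 40.8 and 44.4 FPKM in the PBS libraries and 46.5, 48.7, 48.8 and 53.1 FPKM in the sHA-X libraries. The lowest sHA-X library stood just above the highest PBS library. This gave a log2 change of 0.27 (SE 0.08, limma adjusted p = 0.048). The call was kept without PBS replicate 3 (adjusted p = 0.020) and lost without any other library (PBS replicates 1 and 2, and sHA-X replicates 1 to 4; adjusted p between 0.067 and 0.17). Of its 75-base words 18.5% occur in another gene, 15.7% in H2-T10, which is not in the set, so reads of this pair may have been divided and the level of H2-T22 is uncertain as that of a single gene.

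H2-Q10, a heavy chain that the liver secretes as a soluble protein (chromosome 17, 35470089 to 35474563), had the largest difference among the tested members. It was 1.71, 2.53 and 2.01 FPKM in the PBS libraries and 7.78, 4.97, 23.0 and 22.1 FPKM in the sHA-X libraries. All sHA-X libraries were above all PBS libraries, and sHA-X replicates 3 and 4 were well above replicates 1 and 2. The ratio of means was 6.95 and the log2 change 2.09 (SE 0.57), which was not called (limma adjusted p = 0.066). Without sHA-X replicate 2 the log2 change was 2.47 (adjusted p = 0.034). With any other single library left out H2-Q10 was not called (adjusted p up to 0.19).

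The hepatocyte markers were high in the same libraries as H2-Q10 but spanned a far wider range. Albumin (Alb) stood at 2.17, 8.49, 325 and 370.4 FPKM over the 4 sHA-X libraries, and PBS reached at most 4.10 FPKM. The summed FPKM of all 10 markers was 5.72 in sHA-X replicate 1, inside the PBS range of 3.92 to 9.75, while H2-Q10 in that library was above all PBS libraries. None of the 10 was at 0 in every library, and none of the 9 tested was called. The part of hepatocyte RNA in the H2-Q10 values was not tested. Of the 75-base words of H2-Q10, 12.5% occur in another gene and 9.07% in H2-Q7.

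**Figure D3:**
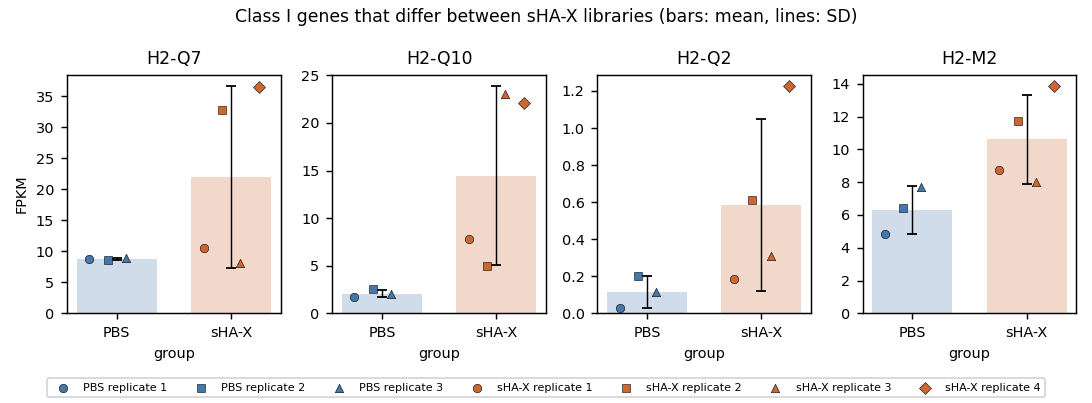
FPKM of H2-Q7, H2-Q10, H2-Q2 and H2-M2 in each library, each on its own linear axis from 0; bars are group means and lines are SD, with n = 3 PBS and n = 4 sHA-X libraries. H2-Q7 and H2-Q2 are highest in sHA-X replicates 2 and 4, H2-Q10 in sHA-X replicates 3 and 4.

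H2-Q7 and H2-Q9 encode the Qa-2 antigen, a surface class I molecule. H2-Q7 (chromosome 17, 35439140 to 35443773) was 8.82, 8.64 and 8.99 FPKM in the PBS libraries and 10.5, 32.8, 8.06 and 36.4 FPKM in the sHA-X libraries. The PBS libraries were nearly alike, sHA-X replicates 1 and 3 stood close to them, and sHA-X replicates 2 and 4 were far above them. With this spread the log2 change of 0.96 (SE 0.59) was not called (limma adjusted p = 0.34). H2-Q9 was 6.79, 6.90 and 6.84 FPKM in the PBS libraries and 7.74, 10.8, 6.45 and 9.12 FPKM in the sHA-X libraries (log2 change 0.26, adjusted p = 0.26). It was also highest in sHA-X replicates 2 and 4 with a smaller difference than H2-Q7, and H2-Q7 over H2-Q9 was between 1.25 and 1.36 in 5 libraries, 3.03 in sHA-X replicate 2 and 3.99 in sHA-X replicate 4. H2-Q6 was between 4.23 and 4.43 FPKM in the PBS libraries and was 4.45, 6.03, 5.02 and 7.75 FPKM in the sHA-X libraries, with no overlap and a log2 change of 0.34 (adjusted p = 0.17). H2-Q2 lay under the level for testing, with 0.031, 0.200 and 0.118 FPKM in the PBS libraries and 0.185, 0.614, 0.309 and 1.23 FPKM in the sHA-X libraries. It too was highest in sHA-X replicates 2 and 4. Of the 75-base words 17.0% of H2-Q7, 17.9% of H2-Q6 and 8.07% of H2-Q2 occur in another gene, so reads of these neighbours may have been divided. H2-Q9 had no transcript in this count, so words that it shares with H2-Q7 are missing from these shares. How reads were divided between H2-Q7 and H2-Q9 is not known, and their ratio is uncertain for that reason.

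Genes of plasma cells and effector T cells followed the same libraries as H2-Q7. These 2 marker lists were chosen after values had been seen. The summed FPKM of 8 plasma cell genes was 610.0, 775 and 916 in the PBS libraries and 1099.8, 2362, 1107 and 2512 in the sHA-X libraries, with Jchain, the joining chain of secreted immunoglobulins, at 1661 and 1812 FPKM in sHA-X replicates 2 and 4. For 8 effector T cell genes the sum was between 74.0 and 86.5 in the PBS libraries and was 80.0, 113, 85.7 and 111 in the sHA-X libraries. Of the 16 genes Xbp1, a secretory cell transcription factor, was called (higher, adjusted p = 0.034), and removal of any PBS library, or of sHA-X library 2 or 4, ended its call (adjusted p up to 0.12). Over all tested genes 9.30% were called higher. No gene of either list was at 0 in every library, and the part of these cells in the Q gene values was not tested.

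H2-M2 was the remaining Q, T or M gene with groups apart. It was 4.82, 6.40 and 7.70 FPKM in the PBS libraries and 8.77, 11.7, 8.04 and 13.9 FPKM in the sHA-X libraries. The lowest sHA-X library was just above PBS replicate 3, and sHA-X replicates 2 and 4 were again the highest. The log2 change was 0.66 (SE 0.21) and was not called (limma adjusted p = 0.083).

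The abundant Q, T and M genes differed little. H2-T23, the heavy chain of Qa-1 that is read by inhibitory receptors of natural killer cells, was 251 ± 10.5 FPKM in the PBS libraries and 264 ± 3.92 FPKM in the sHA-X libraries (log2 change 0.07, 95% interval -0.05 to 0.20). H2-Q4 was 150.2 ± 7.397 FPKM in the PBS libraries and 149 ± 7.81 FPKM in the sHA-X libraries, and the sign of its log2 change of -0.01 turned when PBS replicate 3 was left out (0.03), and likewise for sHA-X replicate 1 (0.008) and for sHA-X replicate 3 (0.01). H2-M3, which presents N-formylated peptides of bacteria and mitochondria, was 37.7 ± 2.67 and 40.5 ± 2.45 FPKM. H2-T24 was 55.1, 58.1 and 37.2 FPKM in the PBS libraries and 44.2, 35.6, 46.3 and 42.9 FPKM in the sHA-X libraries. PBS replicate 3 was low for this gene, which was not called with all libraries (log2 change -0.22, limma adjusted p = 0.42) and was called lower without PBS replicate 3 (-0.42, adjusted p = 0.030). With any other single library left out H2-T24 was not called (adjusted p up to 0.73). The pseudogene H2-T-ps was 9.64 ± 1.34 and 7.87 ± 1.69 FPKM with overlap (adjusted p = 0.26).

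The other 13 Q, T and M genes had a mean under 1 FPKM and were not tested. H2-M1, H2-M10.2, H2-M10.3, H2-M10.4, H2-M10.5, H2-M10.6 and H2-M11 were listed at 0 in all 7 libraries, which are 7 of the 13. A count of 0 allows up to 3 reads per library, or between 0.0808 and 0.102 RPM (reads scaled to depth, here not to length), for counting error only. The other 6 had values above 0 in at least 1 library, and of these only H2-Q2 reached 1 FPKM in any.

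The class II chains that present peptide were the most abundant class II genes and were not called. H2-Aa, the alpha chain of the A molecule (chromosome 17, 34282744 to 34287823), was 1510.3, 1459 and 1819 FPKM in the PBS libraries and 1522, 1490.1, 1374 and 1407 FPKM in the sHA-X libraries. PBS replicate 3 was above all others, and the remaining 6 libraries overlapped. This gave a log2 change of -0.13 (SE 0.09, 95% interval -0.33 to 0.06, limma adjusted p = 0.35). H2-Ab1, the A beta chain, was 1174 ± 144 FPKM in the PBS libraries and 1077 ± 61.5 FPKM in the sHA-X libraries (adjusted p = 0.43). H2-Eb1, the E beta chain, was 752 ± 102 and 711 ± 33.3 FPKM (adjusted p = 0.64), and the sign of its log2 change of -0.07 turned to 0.03 without PBS replicate 3. H2-Eb2, an E beta gene at a much lower level, was 20.01 ± 3.38 and 22.8 ± 2.87 FPKM (adjusted p = 0.37).

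Cd74, the invariant chain, stood with the presenting chains. It was the most abundant member in PBS, with 2612, 2619.6 and 3325 FPKM, and was 2881, 2717, 2600.1 and 2393 FPKM in sHA-X. PBS replicate 3 was the highest and sHA-X replicate 4 the lowest library. The log2 change of -0.10 (SE 0.10, limma adjusted p = 0.57) turned to 0.01 without PBS replicate 3. The level of Cd74 over the summed FPKM of H2-Aa, H2-Ab1 and H2-Eb1 was 0.809 ± 0.0155 in the PBS libraries and 0.818 ± 0.0408 in the sHA-X libraries, a difference within the spread of the libraries.

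Both chains of H2-O fell. H2-Ob, the beta chain (chromosome 17, 34238905 to 34245908), was 137, 131 and 147 FPKM in the PBS libraries and 95.6, 94.9, 88.8 and 84.6 FPKM in the sHA-X libraries. The groups lay clearly apart, with the highest sHA-X library well below the lowest PBS library. The log2 change was -0.60 (SE 0.07, 95% interval -0.75 to -0.45, limma adjusted p = 0.0014), and it was called without each library in turn (adjusted p up to 0.011). H2-Oa, the alpha chain (chromosome 17, 34092379 to 34095234), was 65.6, 67.3 and 80.6 FPKM in the PBS libraries and 54.1, 56.7, 48.2 and 57.6 FPKM in the sHA-X libraries. These groups were also apart, by a smaller gap. This gave a log2 change of -0.39 (SE 0.09, limma adjusted p = 0.027), and removal of PBS replicate 1 (adjusted p = 0.053) ended the call, as did that of sHA-X replicate 1 (0.062) and that of sHA-X replicate 3 (0.060). No 75-base word of either gene occurs in another gene.

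The H2-DM genes, whose product H2-O inhibits, were not called. H2-DMb2 was 164, 159 and 204 FPKM in the PBS libraries and 162, 163, 154 and 144 FPKM in the sHA-X libraries (log2 change -0.16, limma adjusted p = 0.29). H2-DMb1, the neighbouring beta chain gene, was 64.3 ± 2.33 and 68.2 ± 2.97 FPKM (log2 change 0.08, adjusted p = 0.37). H2-DMa, the alpha chain, was 16.8 ± 1.94 and 15.9 ± 0.200 FPKM, and the sign of its log2 change of -0.07 turned to 0.02 without PBS replicate 3. H2-DMa had more recovered reads (3968 to 5296 per library) than H2-DMb1 (2547 to 3350) despite its lower FPKM. Its level beside the beta chains, and its part in their sum, thus depend on the transcript lengths used for scaling. The 2 beta chain genes share 75-base words (15.8% of H2-DMb1 and 16.1% of H2-DMb2 occur elsewhere), so their division is less certain than their sum. The summed FPKM of H2-Oa and H2-Ob over that of the 3 H2-DM genes was 0.828, 0.839 and 0.784 in the PBS libraries and 0.609, 0.606, 0.586 and 0.617 in the sHA-X libraries. All 4 sHA-X ratios were below all PBS ratios, as a description of genes whose levels had been seen.

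Markers of the cells that carry class II moved between the groups as well. Of all tested genes 5.03% were called lower and 9.30% higher. Of 12 B cell markers 8 fell (among them Ms4a1, Cd79a, Cd79b, Pax5, Fcer2a, Blk and Fcrla), 4 were not called, and their summed FPKM was 1987, 1912 and 2284 in the PBS libraries and 1507, 1514, 1440.1 and 1320.4 in the sHA-X libraries. FPKM are scaled to library depth, so a lower sum is a smaller share of the RNA. In these whole-spleen RNA samples, fewer cells of a type, less RNA per cell and more RNA from other cells cannot be told apart. The summed FPKM of the H2-O chains over that of the B cell markers was 0.102, 0.104 and 0.0995 in the PBS libraries and 0.0994, 0.1001, 0.0951 and 0.108 in the sHA-X libraries, so the groups overlapped in this ratio. For H2-Aa, H2-Ab1 and H2-Eb1 the same ratio was 1.65, 1.71 and 1.76 in the PBS libraries and 2.26, 2.21, 2.13 and 2.38 in the sHA-X libraries, apart and higher in sHA-X. The regulator Ciita over the same markers was 0.0157, 0.0156 and 0.0164 in the PBS libraries and 0.0178, 0.0202, 0.0169 and 0.0191 in the sHA-X libraries. These values were also higher in sHA-X, without overlap but by a small gap. All of these ratios were chosen after the values had been seen.

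Of 12 conventional dendritic cell markers Xcr1, Clec9a and Ccr7 fell, Cadm1 rose and 8 were not called, and their summed FPKM was 201, 191 and 241 in the PBS libraries and 189, 176, 171 and 172 in the sHA-X libraries. The calls of Ccr7 and Cadm1 were lost without each of several libraries (PBS replicate 1 and sHA-X replicates 1, 2 and 4 for both, PBS replicate 3 for Ccr7, PBS replicate 2 and sHA-X replicate 3 for Cadm1; adjusted p up to 0.084 and 0.15), and that of Cadm1 also with either other filter, quantile normalization or the plainer variance model. Removing PBS replicate 2 or any of sHA-X replicates 1 to 3 ended the call of Xcr1 (adjusted p up to 0.058), and that of Clec9a, a receptor of cross-presenting dendritic cells, was kept without each library. Of 8 plasmacytoid dendritic cell markers Siglech and Ccr9 fell and Bst2 rose, and removal of PBS library 1 or 2 or of sHA-X library 1 ended the last call (adjusted p up to 0.094). Their summed FPKM was between 709 and 833 in the PBS libraries and between 553 and 727 in the sHA-X libraries. Of 13 macrophage markers 10 rose and none fell, and their summed FPKM was 1423, 1287 and 1640.4 in the PBS libraries and 2616, 2394, 2572 and 2568 in the sHA-X libraries. The call of Adgre1 ended with the removal of any library but PBS 3 and sHA-X 2 (adjusted p up to 0.097), that of Vsig4 with the removal of any but sHA-X 1 and 4 (up to 0.10), and the other 8 were kept without each library. Of 8 monocyte markers Fcgr1, Itgam and Ly6c2 rose and Plac8 fell, the call of Ly6c2 ending with the removal of any library but sHA-X 2 (adjusted p up to 0.12), with summed FPKM of 2613 ± 199.8 and 2599.6 ± 163. Of 10 T cell markers Cd8a fell and 9 were not called, the call of Cd8a ending with the removal of any library but PBS 2 and PBS 3 (adjusted p up to 0.10), with 307 ± 54.96 and 249 ± 31.0 summed FPKM. The median log2 change was -0.53 for the B cell, -0.22 for the conventional and -0.37 for the plasmacytoid dendritic cell, 0.67 for the macrophage, 0.23 for the monocyte and -0.30 for the T cell markers. Beside the called counts of these lists stand 9.30% of all tested genes called higher and 5.03% called lower. No list had a marker at 0 in every library. The part of each cell type in the levels of class II genes was not tested beyond these values.

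**Figure D4:**
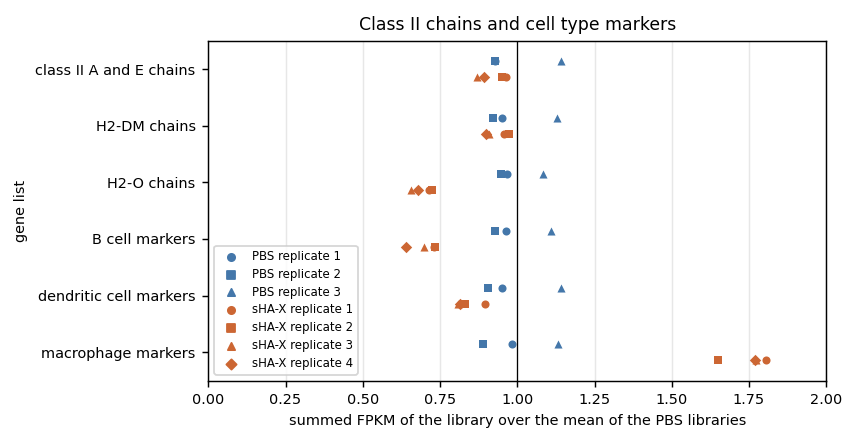
Summed FPKM of class II gene groups and of markers of class II-bearing cells in each library, divided by the mean of the 3 PBS libraries, with PBS in blue and sHA-X in orange and a vertical line at 1. The H2-O chains and the B cell markers lie to the left in all 4 sHA-X libraries (means of 0.693 and 0.701 of PBS), the macrophage markers to the right (1.75), and the A, E and H2-DM chains overlap with PBS.

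Ciita, the master regulator of class II transcription (chromosome 16, 10480014 to 10531064), was 31.3, 29.8 and 37.5 FPKM in the PBS libraries and 26.8, 30.6, 24.3 and 25.2 FPKM in the sHA-X libraries. sHA-X replicate 2 lay inside the PBS range and the other 3 below it. The log2 change was -0.28 (SE 0.10) and was not called (limma adjusted p = 0.099, between 0.060 and 0.20 with 1 library left out). Of 11 further regulators of these promoters 2 rose and 9 were not called. Irf1, a transcription factor that relays interferon signals, rose and was 41.3, 43.2 and 45.0 FPKM in the PBS libraries and 47.7, 52.6, 56.4 and 60.8 FPKM in the sHA-X libraries. Its values did not overlap, and the log2 change was 0.32 (SE 0.08, adjusted p = 0.038). The call of Irf1 ended with the removal of PBS library 1 or 2 or of sHA-X library 2, 3 or 4 (adjusted p up to 0.14), and also with no filter, quantile normalization or the plainer variance model. Rfx5, a subunit of the factor that binds the X box, was 5.92, 5.88 and 7.14 FPKM in the PBS libraries and 5.004, 5.84, 4.46 and 5.09 FPKM in the sHA-X libraries and was not called (adjusted p = 0.11).

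Beyond the set, genes of 7 lists from the surrounding machinery were read from the same fit, in which 9.30% of all tested genes were called higher. Genes were called higher in each list and none lower. With median-of-ratios scaling Cd1d1 and the regulator Creb1 were called lower, and no costimulation gene was called with that scaling or with quantile normalization. The median log2 change was 0.07 for class I loading and peptide supply, 0.42 for class II processing and turnover, 0.32 for class I-like genes, 0.44 for interferon gamma-inducible genes, -0.12 for transcriptional regulators, 0.003 for interferon gamma signalling and 0.07 for costimulation, beside 0.03 for all tested genes. In class I loading and peptide supply 4 of 10 tested genes rose. They were the chaperones Calr (log2 change 0.49, limma adjusted p = 0.018) and Canx (0.24, adjusted p = 0.028), the oxidoreductase Pdia3 (0.44, adjusted p = 0.011) and the tapasin relative Tapbpl (0.29, adjusted p = 0.049). Calr was 263, 264 and 299 FPKM in the PBS libraries and 344, 432, 348 and 427 FPKM in the sHA-X libraries, highest in sHA-X replicates 2 and 4. These calls were lost without PBS replicate 1 for Pdia3 (adjusted p = 0.055), without PBS replicate 1 or 2 for Calr (up to 0.081), and without any library but PBS replicate 3 and sHA-X replicate 3 for Canx (up to 0.090) and any but PBS replicate 3 for Tapbpl (up to 0.18). Tapbpl was also not called with either other filter, with either other scaling or with the plainer variance model, nor was Canx with quantile normalization. Calr, Canx and Pdia3 also fold other secreted proteins. No gene of this list was called without PBS replicate 1, and none after removal of the second library of both groups.

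In class II processing and turnover 5 of 9 tested genes rose, all lysosomal proteases. Ctss, which trims the invariant chain in antigen-presenting cells, was 409.5, 379 and 465 FPKM in the PBS libraries and 543, 549, 543 and 598 FPKM in the sHA-X libraries. The sHA-X libraries were all above PBS, and the log2 change was 0.42 (SE 0.08, limma adjusted p = 0.011, and 0.053 without PBS replicate 1). Lgmn, the asparaginyl endopeptidase, had a log2 change of 0.93 (SE 0.09, adjusted p = 0.00065). Ctsd (0.80), Ctsb (0.72) and Ctsl (0.46) also rose, and the calls of these 4 were kept without each library. Lysosomal proteases are abundant in macrophages, whose markers were higher in the same 4 libraries, and their part in these values was not tested. Ifi30, the lysosomal thiol reductase, was not called (log2 change 0.08, adjusted p = 0.61), nor was Marchf1, which directs class II molecules to degradation (-0.16, adjusted p = 0.37).

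Of 12 tested interferon gamma-inducible genes 6 rose (Irgm2, Iigp1, Gbp5, Gbp2, Igtp and Gbp6), all GTPases of cell-autonomous defence. Their list gave a summed FPKM of 298, 301 and 308 in the PBS libraries and 378, 356, 505 and 486 in the sHA-X libraries. All sHA-X libraries were above PBS, and sHA-X replicates 3 and 4, those with the highest hepatocyte markers, were the highest. Iigp1 was 22.9, 23.4 and 23.3 FPKM in the PBS libraries and 38.4, 36.7, 54.8 and 61.0 FPKM in the sHA-X libraries (log2 change 0.97, SE 0.18, limma adjusted p = 0.016, and up to 0.070 without PBS replicate 1 or 2). The number called was 1 without PBS replicate 1 or without PBS replicate 2, and 2 without sHA-X replicate 3 or without sHA-X replicate 4. It was 4 without PBS replicate 3, 4 with median-of-ratios scaling (Gbp6 and Igtp lost) and 2 with no filter, and Irgm2 alone was called without each library (adjusted p up to 0.032). Ifng itself lay under the level for testing in the mean, between 0.336 and 1.40 FPKM, with overlap between the groups. Of 5 tested genes of interferon gamma signalling Socs1, a feedback inhibitor of the pathway, rose (log2 change 0.55, adjusted p = 0.0025), and its receptors Ifngr1 and Ifngr2 had log2 changes of 0.01 and 0.003.

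Among class I-like genes outside the complex 2 of 6 tested rose. Fcgrt, the heavy chain of the neonatal Fc receptor, which also pairs with beta-2 microglobulin, was 46.2, 44.2 and 50.8 FPKM in the PBS libraries and 70.8, 68.3, 68.2 and 71.7 FPKM in the sHA-X libraries. The groups were far apart relative to their spread, and the log2 change was 0.56 (SE 0.06, limma adjusted p = 0.0013), kept without each library. Hfe, a class I-like regulator of iron uptake, had a log2 change of 0.39 (adjusted p = 0.013, and 0.064 without PBS replicate 1). Cd1d1, which presents lipids to natural killer T cells, was between 15.8 and 19.4 FPKM in the PBS libraries and between 14.4 and 15.2 FPKM in the sHA-X libraries and was not called (log2 change -0.22, adjusted p = 0.082). Of 6 costimulation genes Cd274, the inhibitory ligand PD-L1, rose (log2 change 0.31, adjusted p = 0.043), and removal of PBS library 1 or 2 or of sHA-X library 1, 3 or 4 ended this call (adjusted p up to 0.16), as did either other filter, either other scaling and the plainer variance model. The activating ligands Cd80 and Cd86 were not called (adjusted p = 0.76 and 0.084).

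**Figure D5:**
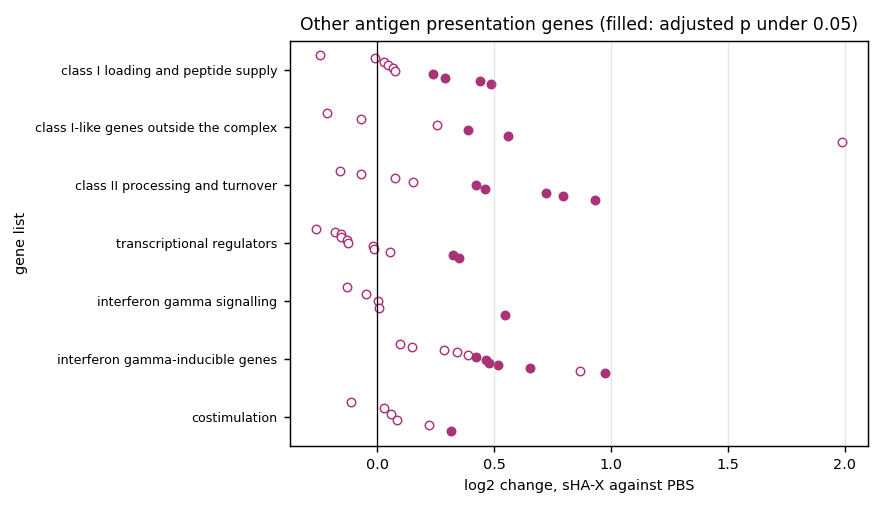
Log2 change, sHA-X against PBS, of each tested gene in 7 lists of antigen presentation and interferon genes outside the set, by limma on log2(FPKM + 1); filled points have an adjusted p under 0.05. All filled points lie to the right of 0, from 0.24 for Canx to 0.97 for Iigp1, and the open point near 2 is Azgp1, a class I-like gene expressed in liver.

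H2-Ke6, the dehydrogenase gene inside the complex (chromosome 17, 34026033 to 34028055), was 43.1 ± 3.48 FPKM in the PBS libraries and 37.6 ± 2.89 FPKM in the sHA-X libraries and was not called (log2 change -0.19, limma adjusted p = 0.15). Of its 75-base words 65.5% occur in Gm20427, so its level is uncertain.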

How the data were processed

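RNA sequencing of total RNA from mouse spleen, in 7 libraries, gave 1 table of 22173 genes. Tools listed in the submitters' processing notes, without roles, were DESeq2, fastp, HTSeq, HISAT2 and R 3.2.0, and the build was mm10. The header of the deposited table names no unit. Its values were read as FPKM that the authors computed. Each gene's values were whole multiples of 1 read's worth within 0.05 of a read, for 100.0% of the 16889 genes above 0 in 2 or more libraries. The search accepted only steps that fitted within 0.01 of a read, so this share alone does not show the unit. The worth of 1 read also followed the recovered read totals of the libraries, within 0.097%. All 7 columns carried a sample's title. A 3-read floor covers counting error only.

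FPKM were tested as log2(FPKM + 1), which understates changes of low genes, with limma 3.58.1 in R 4.3.3 (two-sided, trend and robust variance, with group alone in the model). A mean of at least 1 FPKM was required, which kept 11920 genes and dropped 10253, and p-values were adjusted over all tested genes by the Benjamini-Hochberg method. The test was also run on simulated data, with larger planted changes than those of the called members. That run therefore does not show how reliable the calls reported here are. Separate animals are not stated in the labels, and p-values thus reflect only how much these libraries vary. No source used here says if the kit kept strand, so antisense and sense reads of overlapping genes cannot be told apart.

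Replicate numbers were not taken to pair the libraries (correlations of same-numbered deviations between -0.286 and 0.15). Coordinates are RefSeq GRCm38. Shared words of 75 bases were counted over GENCODE transcripts, which 44 members have, all but H2-Q9. The members, the 7 pathway lists and the 9 marker lists were chosen with earlier results of these data known, and 2 further marker lists after values were seen. Every member with a mean of at least 1 FPKM is named with values, and up to 4 called genes of each pathway list by smallest p, with other genes chosen after their values were seen. The 16 alternatives were another pseudocount, 2 other filters, 2 scalings, a plainer variance model, limma voom on recovered reads, a replicate block, leaving out each library and leaving out both second libraries. A few genes of these lists are not reported singly here.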

Additional observations from a re-analysis of the deposited data

Results flagged for a closer look

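Of 67 genes, summed levels and within-library ratios checked over the 4 sHA-X libraries, 2 had 1 library far from the other 3. Chance gives about 1 in 20. The summed FPKM of the class II processing and turnover genes was 2856 in sHA-X replicate 2 and between 2915 and 2920.0 in the other 3, a small difference in a tight group. Skeletal muscle genes summed to 187.9 FPKM in sHA-X replicate 2 and to between 5.588 and 8.004 FPKM in the others.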

How the results depend on the processing

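With each single library left out in turn, called genes ranged from 488 to 1263 higher and from 228 to 637 lower over all genes, from 0 to 2 higher among classical class I genes, from 0 to 1 higher and 0 to 1 lower among Q, T and M genes, from 1 to 2 lower in class II, and from 0 to 1 higher among processing genes and regulators. The replicate block gave 276 genes higher and 72 lower, with 0 Q, T and M genes and 0 processing genes higher and 1 class II gene lower (H2-Ob). The numbers share no stated source, and this fit also spends more terms on 7 libraries. Without both second libraries 492 genes were higher and 330 lower, again with 0, 0 and 1 (H2-Ob). Quantile normalization gave 938 genes lower and called 1 classical gene higher (H2-D1). The Q, T and M call (H2-T22) and the processing call (Nlrc5) both went to 0 with no filter, with a filter at 0.1 FPKM, with median-of-ratios scaling and with quantile normalization. Nlrc5 and H2-T22 were also not called with the plainer variance model, where H2-Q10 was, and the smaller pseudocount called 2 Q, T and M genes (H2-T22 and H2-Q10). Of 52 called genes of the pathway and marker lists, 29 were not called with the replicate block, and 11 (Cadm1, Canx, Cd274, Cd8a, Gbp2, Gbp5, Gbp6, Igtp, Irf1, Ly6c2 and Tapbpl) were not called under at least 1 other filter, scaling or variance model. The block left 0 called regulators, 0 of class I loading and 0 of costimulation, 1 class I-like gene, 3 of class II processing, 3 interferon gamma-inducible genes, 4 B cell and 8 macrophage markers. The causes were not tested. H2-Ob was called lower under all 16 alternatives. Signs turned only for genes near 0. With 1 library left out the log2 change ranged from -0.0429 to 0.0302 for H2-Q4 (above 0 without PBS replicate 3, sHA-X replicate 1 and sHA-X replicate 3, the last 2 at 0.0080 and 0.0101), and from -0.1267 to 0.0184 for H2-DMa, from -0.1353 to 0.0339 for H2-Eb1 and from -0.1598 to 0.0143 for Cd74, each above 0 without PBS replicate 3. Tap1 was -0.0007 with median-of-ratios scaling and -0.0099 with quantile normalization, where Tapbp was -0.0160. Depth limits chiefly the 13 members under 1 FPKM, and shared sequence the Q and T genes.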
